A study of Mus musculus with 21 samples.

Results

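Snrnp25, Rhbdf1 and Mpg are 3 genes on the enhancer side of the mouse alpha-globin cluster, described here as contact targets of an alpha-globin promoter and of the alpha-globin enhancer. Their region was taken as the positions from 32104000 to 32131000 on chromosome 11 (mm9, per the submitters' processing notes). It held 28 positions in each of 3 libraries and 27 in each of the other two, which lie on a shifted grid. That made 138 of 1855 positions of the locus over its 5 libraries, and of 14771 positions over the 21 libraries of the series. Circular chromosome conformation capture (4C-seq) sequences what was ligated to 1 chosen fragment, the viewpoint, and so measures which DNA lay close to it at fixation.

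All 5 libraries came from C57BL/6 embryos at 14.5 days post coitum and were cut with DpnII, then with Csp6I. From the Hba-a1 promoter there was 1 library of fetal liver, 1 of fetal liver made with 1/16 of the template, and 1 of fetal brain. From HS-26, the enhancer viewpoint, there was 1 library of fetal liver and 1 of fetal brain. Tissue of 10 to 12 embryos was pooled and the cells were fixed with 2% formaldehyde for 10 minutes. Each group is 1 library without a replicate, and for that reason differences carry neither a test nor a p-value. No expression was measured in these libraries, so the tissues could not be checked against marker genes. Each tissue is a mixture of cells, so fewer cells with a contact and a rarer contact per cell cannot be told apart.

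Fetal liver is the erythroid tissue of the fetus and transcribes alpha-globin at a high level, while fetal brain does not. The enhancers that drive the globin genes lie inside introns of the neighbouring gene Nprl3, and genes further out on the same side are known as bystanders that most tissues express. Snrnp25 encodes a protein of the minor spliceosome, which removes a rare class of introns. Rhbdf1 encodes iRhom1, an inactive relative of rhomboid proteases that helps mature a membrane sheddase. Mpg encodes a DNA glycosylase that cuts alkylated purines out of DNA at the start of base excision repair. In erythroid cells, deletion of CTCF sites between the enhancers and these 3 genes is known to raise their expression.

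In the gene table at hand (RefSeq, GRCm38.p6), the order towards higher coordinates is Il9r, Snrnp25, Rhbdf1, Mpg, Nprl3, Hba-x and Hba-a1. The models of Mpg and Nprl3 overlap there. No annotation of mm9 was used, so positions were not assigned to single genes, and the region is described by position. It lies 53.894 to 80.894 kb from the Hba-a1 promoter viewpoint, placed at 32184894, and 18.25 to 45.25 kb from the HS-26 viewpoint, placed at 32149250. HS-26 therefore lies between the region and the promoter.

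Signal in 4C-seq is read at the ends of DpnII fragments, so the promoters are shown for whether that enzyme cuts them. Sequences for 2 of the 3 genes were in the RefSeq promoter table of GRCm38.p6, whose coordinates must not be set against the mm9 positions here. They are Snrnp25 (chr11:32205165-32205414, plus strand) and Mpg (chr11:32226255-32226504, plus strand), each the 250 bases before the gene's start. Capitals mark GATC, the DpnII site, which reads the same on both strands.
Snrnp25: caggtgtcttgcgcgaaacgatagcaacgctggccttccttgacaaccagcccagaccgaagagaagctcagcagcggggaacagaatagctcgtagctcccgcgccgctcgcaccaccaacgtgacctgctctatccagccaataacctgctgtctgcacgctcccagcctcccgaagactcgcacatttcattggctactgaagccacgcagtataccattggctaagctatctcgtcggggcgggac
Mpg: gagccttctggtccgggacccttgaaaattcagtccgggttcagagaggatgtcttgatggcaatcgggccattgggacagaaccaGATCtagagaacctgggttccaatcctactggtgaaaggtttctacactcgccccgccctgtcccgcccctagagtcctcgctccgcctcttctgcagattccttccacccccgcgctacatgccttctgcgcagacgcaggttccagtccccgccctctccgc
The Mpg promoter held 1 DpnII site, starting at base 87 of the window. The Snrnp25 window held 0, and neither held GTAC, the Csp6I site. Among 32851 mouse promoter windows of this length, 41.9% held GATC and 31.5% GTAC. Both are rich in CpG, with 19 in Snrnp25 and 14 in Mpg against a median of 6 over all windows.

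The values are the authors' running medians of signal in steps of 1000 bp, and a 5 kb window was used unless the 2 kb window is named. For relative signal, each value was divided by the mean of its own library outside the 10 kb around the viewpoint, so that 1 is the average level. Sequencing depth is unknown, since the files hold no counts. In the full-template promoter library of liver, 21.2% of positions were empty, against at most 0.8% in the 4 other libraries. In the 1/16 template library 44.0% of positions held 1 recurring value, a relative signal of 0.371, and those positions have no order. From HS-26 in liver 38.7% of positions held 1 recurring value as well, 0.000962 as deposited. In both libraries the recurring value is also the library median. With the 2 kb window 22.8% to 33.7% of positions were empty in each of the 5 libraries.

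From the Hba-a1 promoter the region had a local peak common to all 3 libraries and a weaker signal than HS-26. Mean relative signal over the region was 0.578 in liver, 1.14 in the 1/16 template library and 1.17 in brain. Single positions ran from 0.125 to 1.57 in liver, from 0.371 to 2.78 in the 1/16 template library and from 0.554 to 2.11 in brain. The liver mean was the lowest of the 3 on this scale, while the range of its positions overlapped that of both others. The authors' lower and higher window values, as deposited, averaged 0.00498 and 0.0888 in liver, 0.0173 and 0.181 with 1/16 template and 0.0127 and 0.0662 in brain. HS-26, within 5 kb to either side of its viewpoint, reached 13.9, 9.03 and 2.98 in the same order. It exceeded the region 24.0-fold in liver, 7.91-fold with 1/16 template and 2.54-fold in brain. HS-26 is nearer to the promoter than the region is, and these folds are not corrected for distance.

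**Figure D1:**
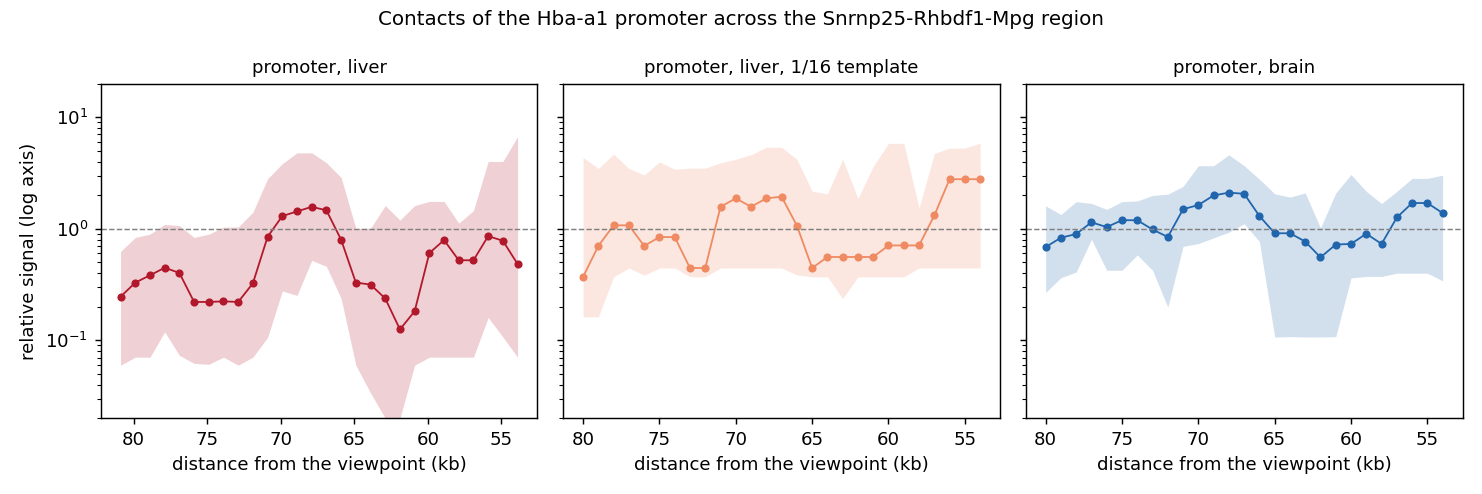
Relative signal (log axis) of the 3 Hba-a1 promoter libraries at each position of the region against distance from the viewpoint in kb, 5 kb window, with the authors' lower and higher window values as a band that ends at the axis. All 3 profiles rise around the same distance, where liver reaches 1.57 and brain 2.11, and the 1/16 template library is highest, at 2.78, at the end nearest the viewpoint.

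The common peak lay at 32117000 in liver, with a relative signal of 1.57, and at 32116894 in brain, with 2.11. The 1/16 template library had a local maximum of 1.94 at 32117894, but its highest signal was 2.78, held from 32128894 to the near end of the region. Signal rose away from the viewpoint to reach this peak. In liver it was 0.125 at 32123000, nearer the viewpoint, and 0.221 at 32112000 on the far side. In brain the low point was 0.554 at 32122894, and 0.844 was found at 32112894. With the 2 kb window liver reached 2.46 at 32117000, 1/16 template 4.95 at 32116894 and brain 3.43 at 32116894. All 3 promoter libraries therefore had this local peak at both window sizes, with a trough on its viewpoint side.

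The region was also cut into 4 segments of 7 kb, numbered towards the viewpoint, and segments 2 and 4 exceeded segments 1 and 3 in all 3 promoter libraries with the 5 kb window. Segment 1, from 32104000 to 32110000, had a mean relative signal of 0.321 in liver, 0.801 with 1/16 template and 0.996 in brain. Segment 2, from 32111000 to 32117000, had 0.845, 1.39 and 1.59. Segment 3, from 32118000 to 32124000, had 0.493, 0.636 and 0.843. Segment 4, from 32125000 to 32131000, had 0.652, 1.85 and 1.28. With the 2 kb window the liver order of segments 3 and 4 turned, to 0.741 and 0.677.

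**Figure D2:**
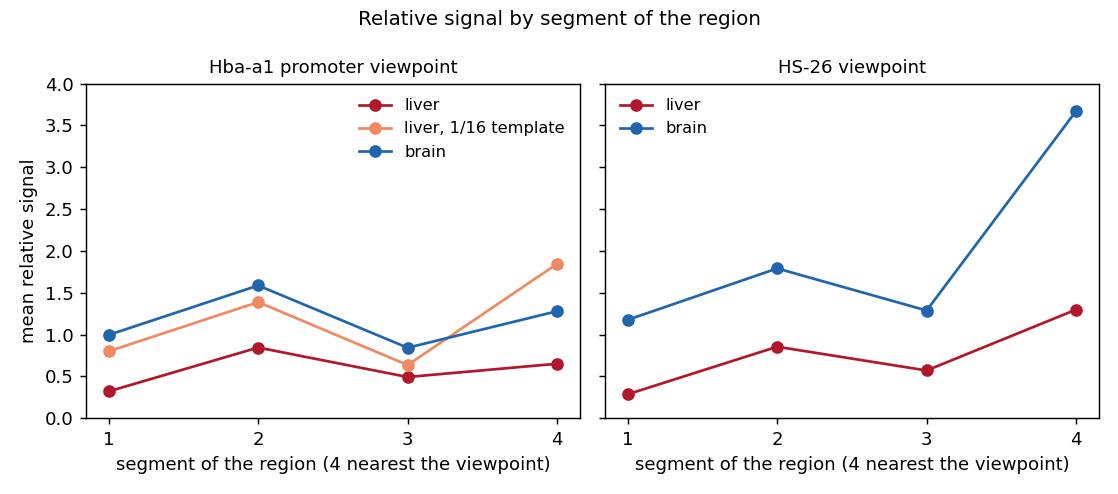
Mean relative signal in the 4 segments of the region (segment 4 is nearest the viewpoint), 5 kb window, for the 3 promoter libraries and the 2 HS-26 libraries. Segments 2 and 4 lie above segments 1 and 3 from the promoter, and HS-26 in brain reaches 3.67 in segment 4.

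Set against distance, the region lay above a decay fitted to both sides of the promoter in all 3 libraries. Observed over expected (O/E) is the mean signal over the region divided by a decay that falls with distance, fitted to both sides of the viewpoint, after a pseudocount of 10% of the library mean was added to both. It was 1.71 in liver, 1.51 with 1/16 template and 1.34 in brain. The region's own signal enters that decay. When it was left out, O/E was 5.25, 2.55 and 1.56. With the decay fitted on the region's side alone, which the region enters as well, O/E was 1.00, 1.06 and 0.990. That fit largely follows the region's own signal, so it draws O/E towards 1.00 and can show little excess or deficit.

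The stretch at the same distances on the other side of the promoter, from 32238788 to 32265788, gave that comparison without a fitted decay. Mean signal as deposited was 0.0239 in the region and 0.000629 in the mirror stretch in liver, a ratio of 38.1, and 9 of 27 mirror positions were empty. With 1/16 template the values were 0.0510 and 0.0171, a ratio of 2.99. That mirror mean lay close to the recurring value of the library, 0.0166 as deposited. In brain they were 0.0332 and 0.0144, a ratio of 2.30. The region exceeded its mirror stretch in all 3 libraries.

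**Figure D3:**
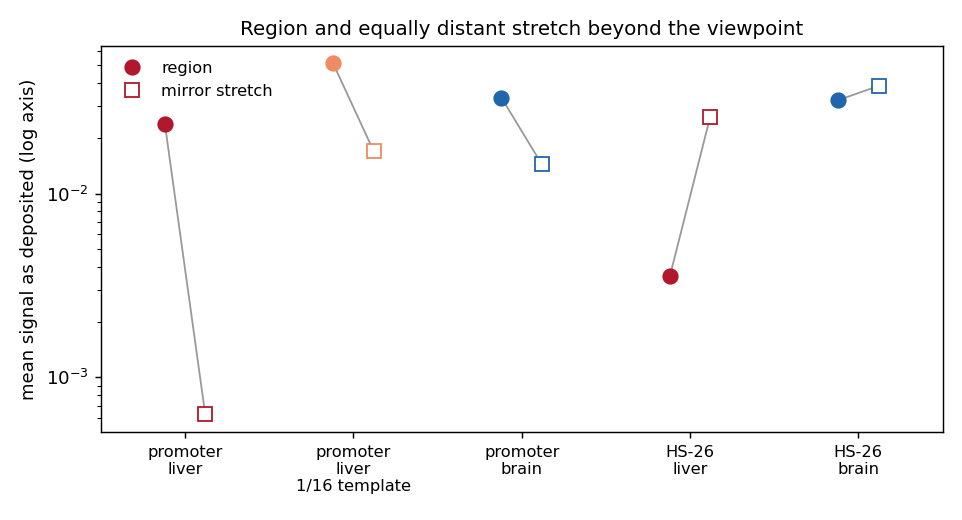
Mean signal as deposited (log axis) in the region (filled circles) and in the stretch at the same distances beyond the viewpoint (open squares) for the 5 libraries, 5 kb window. The region lies above its mirror stretch in the 3 promoter libraries, by 38.1-fold in liver and 2.30-fold in brain, and 7.39-fold below it from HS-26 in liver.

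From HS-26, the nearer viewpoint, the region was below the decay fitted to both sides in liver and closer to it in brain. Mean relative signal was 0.753 in liver and 1.98 in brain, and single positions ran from 0.217 to 1.92 in liver and from 0.569 to 5.07 in brain. As deposited, the means were 0.00355 (mean lower and higher window values 0.000836 and 0.0211) in liver and 0.0322 (0.00910 and 0.0695) in brain. In liver 10 of 28 positions held the same value, a relative signal of 0.314, so those have no order. Liver had an O/E of 0.275 and brain one of 0.918, which the 2 kb window moved to 0.346 and 1.09. A decay on the region's side alone gave an O/E of 1.07 in liver and 1.02 in brain. That fit largely follows the region's own signal and could show little deficit.

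The mirror stretch of HS-26, from 32167500 to 32194500, holds the Hba-a1 promoter viewpoint. It had a mean signal of 0.0262 in liver, 7.39-fold above the region, and of 0.0385 in brain, 1.20-fold above it. With the 2 kb window the brain order turned, with the region 1.22-fold above its mirror stretch, while in liver the mirror stretch stayed 5.65-fold above the region. At 2 kb 8 of 27 mirror positions were empty in each tissue, against 1 of 28 in the region. Their part in the turned brain order was not tested. In liver the enhancer's signal lay more on the globin side than on the side of the 3 genes at both window sizes.

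**Figure D4:**
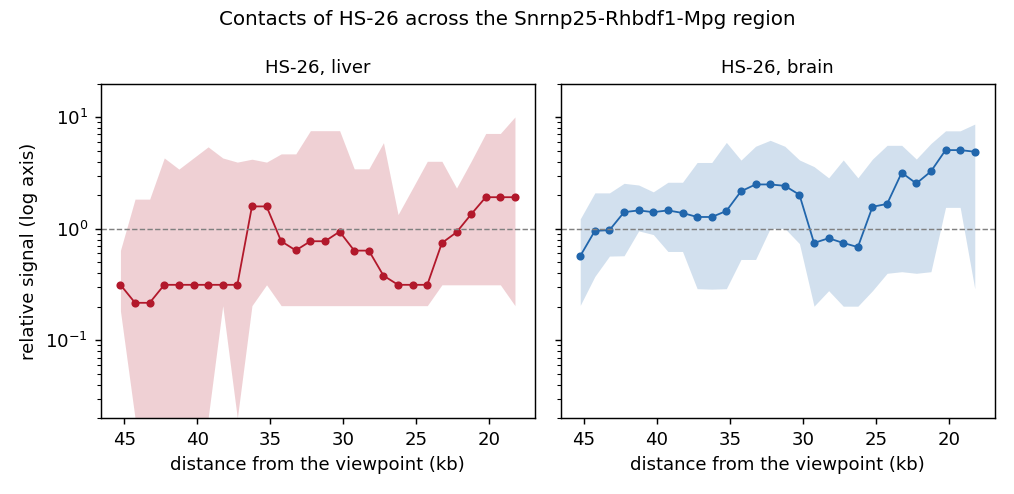
Relative signal (log axis) of the 2 HS-26 libraries at each position of the region against distance from the viewpoint in kb, 5 kb window, with the authors' lower and higher window values as a band that ends at the axis. Brain rises to 5.07 near the viewpoint and has a local rise to 2.50 further out, while liver stays at 0.314 over several positions and reaches 1.92.

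Within the region HS-26 gave the highest signal at the end nearest to it. Both tissues peaked at 32129000, with 1.92 in liver and 5.07 in brain, and kept those values at 32130000. Brain also had a hump of 2.50 at 32117000, where the promoter profiles peak, with 0.685 at 32123000. In liver the corresponding value at 32117000 was 0.773, while 32113000 had 1.59. By segment, means in liver were 0.286, 0.855, 0.571 and 1.30 for segments 1 to 4, and in brain 1.18, 1.79, 1.29 and 3.67. With the 2 kb window the liver maximum moved to 32120000, where relative signal was 3.90.

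A second narrow site was seen with the 2 kb window at 32124000. Relative signal there was 1.70 from the promoter in liver and 6.98 from HS-26 in brain, and at 32123894 it was 4.85 with 1/16 template and 2.73 in brain from the promoter. HS-26 in liver had 0.368 at that position, a value it held at 10 of 28 positions. Directly beside it, at 32125000 or 32124894, signal was exactly 0 in 4 of the 5 libraries and 0.862 in the full promoter library of liver. That library carries a longer number in its title, and the sources used here do not say whether it pools several runs. With the 5 kb window the site did not stand out from the promoter. Relative signal was then 0.182 in liver at 32124000, and 0.558 with 1/16 template and 0.722 in brain at 32123894. From HS-26 in brain it was 1.57 at 32124000.

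Profiles over the region resembled each other across viewpoints and tissues. Pearson's r of log2 relative signal over 27 or 28 positions ran from 0.538 to 0.845 among the 10 pairs of libraries with the 5 kb window, and from 0.319 to 0.874 with the 2 kb window. The highest at 5 kb joined the 1/16 template liver library and brain from the promoter. Positions share fragments and overlapping windows within each profile and carry no p-value.

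The liver-to-brain comparison asks whether the genes beside the globin cluster meet its promoter or enhancer to a different extent where globin is active. From the promoter, over 27 matched positions, mean relative signal was 0.590 in liver and 1.17 in brain, 1.99-fold lower in liver, a direction that turned with the scaling. That was with library-mean scaling; divided by the library median, liver was 15.7-fold higher, and as deposited it was 1.36-fold lower. The liver mean stood 52.3 times above its median, against 1.68 times in brain.

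Past 2-fold, 14 of 27 region positions were lower in liver, where 80.6% of all 325 positions were, and 0 were higher, where 7.38% were. The median log2 ratio was -1.03 in the region and -1.96 over all positions, so the region lay 0.93 above the locus median. The liver library median was 0.000793 as deposited against a mean of 0.0414, below the relative signal of 0.1 added to both values. At such positions the ratio depends mostly on the added value and on brain, which limits the locus median and the 80.6%. Scaled to the library median, 27 of 27 were higher and 0 lower, against 46.2% and 24.9% of all positions. As deposited, 0 were higher and 4 lower, against 7.69% and 63.4%. At 2 kb 1 was higher and 15 were lower, against 7.62% and 62.5%. The higher one, 32125000, was matched to a brain position with a signal of 0. With the 1/16 template library in place of the full one, liver and brain means were 1.14 and 1.17. Then 0 of 27 positions were past 2-fold in either direction, against 6.93% higher and 23.7% lower over all positions, and the median log2 ratio was -0.22 in the region and -0.32 over all positions.

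Divided by the library mean, the authors' lower and higher window values of liver and brain overlapped at every one of the 27 positions with the 5 kb window. With the 2 kb window 1 region position had liver wholly below brain and 1 wholly above. Scaled to the library median the overlap did not hold throughout at 5 kb, since liver lay wholly above brain at 32105000. Over the locus, with the library mean and the 5 kb window, 50.5% of positions had liver wholly below brain and 0.615% wholly above. Log2 O/E was 0.35 higher in liver than in brain, and 0.17 higher with the 1/16 template library. Full and diluted liver, a technical pair of 1 tissue, differed by 0.18. With the median over region positions the tissue difference turned, to -0.12. With the region left out of the decay, liver and brain differed by 1.75 and full and diluted liver by 1.04.

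**Figure D5:**
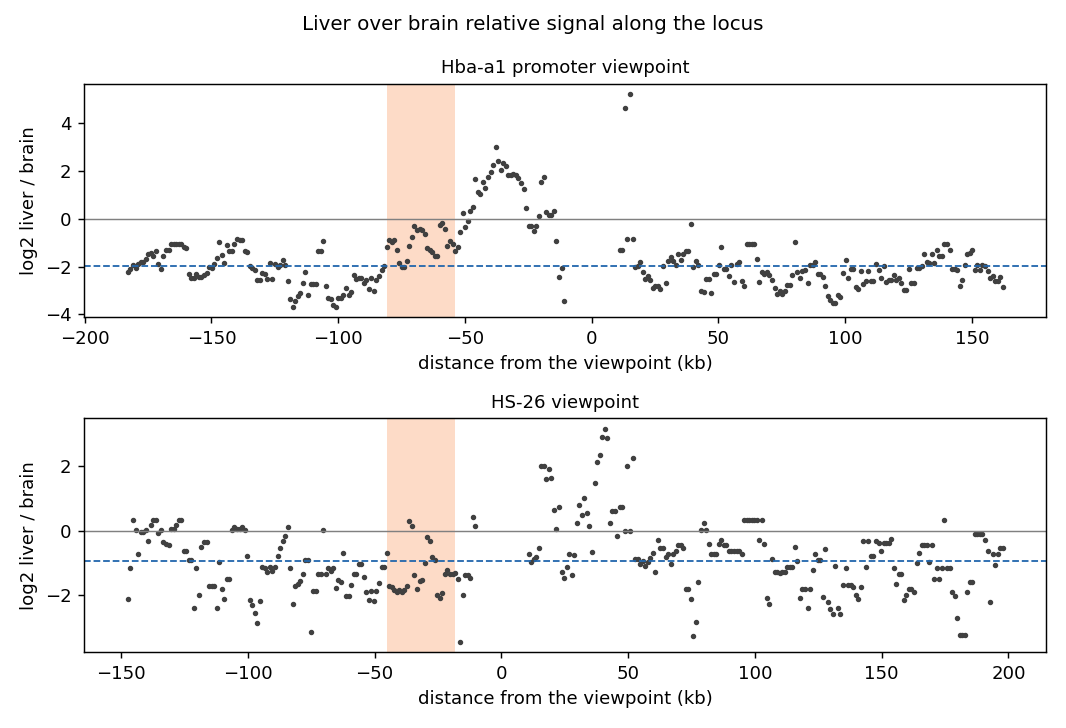
Log2 of liver over brain relative signal at each position beyond 10 kb of the viewpoint, against signed distance from the viewpoint in kb, for the Hba-a1 promoter (top) and HS-26 (bottom), with the region shaded, 0 as a solid line and the median of all positions dashed. Scaled to the library mean, from the promoter the region's median of -1.03 lies above the locus median of -1.96, and from HS-26 its -1.45 lies below -0.96; median scaling turns the promoter values positive.

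From HS-26, mean relative signal of the region was 2.63-fold lower in liver than in brain. As deposited it was 9.09-fold lower. Scaled to the library median it was 1.12-fold lower, which is close to no difference. The liver median used there is the recurring value of that library. The direction was the same under all 3 scalings, but its size was not. Past 2-fold, 21 of 28 positions were lower in liver, where 48.5% of all 326 positions were, and 0 were higher, where 4.29% were. Scaled to the library median, 2 of 28 were lower against 25.8% of all positions and 2 were higher against 19.6%. As deposited 28 were lower and 0 higher, against 95.7% and 0.92%. At 2 kb 14 were lower and 1 higher, against 40.4% and 3.65%. The median log2 ratio was -1.45 in the region and -0.96 over the locus. The largest deficit was at 32125000, with 0.314 in liver and 1.67 in brain, and the largest excess at 32113000, with 1.59 and 1.27. That 0.314 is the value liver held at 10 of 28 positions, and with the 2 kb window both tissues were 0 at 32125000.

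Divided by the library mean, window values of liver and brain overlapped at all 28 positions from HS-26 as well. There 5.83% of positions of the locus had liver wholly below brain and 0.307% wholly above. With the 2 kb window 1 region position had liver wholly below brain. As deposited the overlap did not hold throughout at 5 kb. At 32104000 the higher value of liver was 0.00301 and the lower value of brain 0.00334. The difference of log2 O/E was -1.74. It became 0.059 with the decay on the region's side alone, a fit that largely follows the region and can show little difference. No diluted library of HS-26 was analysed here, so the tissue and the fill of the library cannot be told apart there.

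The diluted library shows how far 2 promoter libraries of 1 tissue differed. Full against 1/16 template, the region was 1.94-fold lower in relative signal in the full library. Past 2-fold, 11 of 27 positions were lower against 67.7% of all positions, and 0 were higher against 1.85%. The 67.7% has the same limit, since the full library's median lies below the added value. Scaled to the library median this also turned, with 27 of 27 higher and 0 lower against 49.2% and 20.6%. At 2 kb 17 were lower and 1 higher, against 50.3% and 4.57%. The higher one, 32125000, was matched to a diluted position with a signal of 0. The fold with mean scaling is about as large as the difference between liver and brain from this viewpoint.

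Signal fell beyond the far edge of the region most steeply from the promoter in full-template liver. In the 28 positions next to it, from 32076000 to 32103000, mean relative signal from the promoter was 0.0607 in liver, 0.403 with 1/16 template and 1.01 in brain. The region exceeded this flank 9.52-fold, 2.84-fold and 1.16-fold. From HS-26 the flank had 0.220 in liver and 0.817 in brain, and the region exceeded it 3.42-fold and 2.43-fold. The 1/16 template flank mean lay near that library's recurring value of 0.371. No flank position from HS-26 in liver exceeded 0.314, the value recurring in the region. These ratios are therefore limited by the low level of each library. The flank is also further from both viewpoints. On the other side of the viewpoint, the ratio of the mirror stretch to the stretch beyond it was 4.13, 1.81 and 0.934 from the promoter in the same order, and 5.10 and 2.55 from HS-26. The ratio of segment 1 alone to the flank was 5.29 in liver and 0.987 in brain from the promoter.

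On the near side, the positions from 32132000 to 32139000, which end 10 kb before HS-26, were higher. They are also nearer to both viewpoints than the region is. Their mean exceeded the region 3.05-fold in liver, 1.77-fold with 1/16 template and 1.20-fold in brain from the promoter, and 3.56-fold in liver and 2.31-fold in brain from HS-26. These folds are not corrected for distance. With the 2 kb window the order turned in the 1/16 template and brain libraries of the promoter, with ratios of 0.948 and 0.860.

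Shares of signal sum up these levels over the stretch covered by all 5 libraries. The region held 4.96% of the signal from the promoter in liver, 8.56% with 1/16 template and 9.01% in brain, and from HS-26 6.46% in liver and 17.0% in brain. It made up 8.31% to 8.59% of the positions. With this window HS-26 in brain gave the one share well above that of the positions, and with the 2 kb window the 1/16 template library had 13.1% as well.

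Of 29 partly overlapping stretches of equal length elsewhere in the locus, the one most like the region was 32202000 to 32229000. It lies on the far side of the Hba-a1 promoter, and likeness was taken over the 5 libraries. The root mean square difference of log2 mean relative signal was 0.66. Its relative signals were 0.520, 0.867 and 2.23 from the promoter in liver, 1/16 template and brain, and 0.420 and 1.05 from HS-26 in liver and brain. The next that did not overlap it was the far flank described above, with 1.38. Likeness in these 5 values says nothing about what the stretches do.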

How the data were processed

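Contacts were measured by 4C-seq in 5 libraries of the alpha-globin locus. The deposited files hold a signal smoothed by the authors as running medians over several window sizes, per the file names, with a middle, a higher and a lower value per window. Values of exactly 1 lie at the viewpoint. Aligner, filters and read numbers: not given in the sources used here. Window sizes were read from the unfilled ends of the columns. The viewpoint was the position of highest 5 kb signal, as the median over its libraries, at most 3 kb from any single one. Positions within 10 kb of it were left out. Grids were matched within 500 bp. The decay was an isotonic fit (scikit-learn 1.9.0, numpy 2.4.6). For ratios by position a relative signal of 0.1 was added to both values. Alternatives were the 2 and 10 kb windows, other decays, scalings, pseudocounts and edges. The decay was tested on simulated profiles, where O/E kept the order of the true changes but understated their size. Named positions were the highest signal and O/E per library, the largest ratios per comparison and the ends of the region. Other positions, the flanks and the 2 kb site were chosen after their values were seen. The members and lists were chosen with earlier results of these data known.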

Additional observations from a re-analysis of the deposited data

Results flagged for a closer look

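Log2 O/E in liver minus that in brain was 0.35 with the Hba-a1 promoter as viewpoint and -1.74 with HS-26, so the viewpoints had opposite signs under this setting. With the median over region positions both were negative, at -0.12 and -1.64. With the decay on the region's side alone they were 0.014 and 0.059. That fit largely follows the region's own signal, so these 2 signs carry little weight. Each value rests on 1 library per tissue, and the difference between the viewpoints was not tested. On relative signal scaled to the library mean, both viewpoints gave lower values in liver, and scaled to the library median the promoter's direction turned.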

How the results depend on the processing

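Of 204 alternatives over 37 results, 166 moved a value by less than 1.5-fold (or a position by 5 kb or less), 36 moved it further, and 2 moved a value past 2-fold to the other side of 0. Counting all log2 values, 16 alternatives changed the sign, several of them of values near 0. Among these, the promoter's liver-minus-brain difference of log2 O/E, 0.35, became -0.12 with the median over positions, and the full-minus-diluted difference, 0.18, became -0.091 with that median and -0.083 with the decay on the region's side alone. The cause was not tested. Fitting the decay on the region's side alone turned log2 O/E from HS-26 in liver to 0.091 and its tissue difference to 0.059, and took the promoter's liver value to 0. That fit largely follows the region's own signal and draws log2 O/E towards 0, so its changes of sign carry little weight. With a power law log2 O/E from HS-26 in liver was -0.59 and its tissue difference -0.70. Leaving the region out of the decay, an alternative chosen after seeing the data, gave log2 O/E of 2.39 and 1.35 from the promoter in full and 1/16 template liver and -2.58 from HS-26 in liver. The differences became 1.75 for liver against brain and 1.04 for full against diluted template from the promoter, and -2.34 from HS-26. The median over positions gave 0.15 from the promoter in liver. Scaling to the library median changed log2 relative signal to 4.92, 1.62 and 0.98 from the promoter in liver, 1/16 template and brain, and to 1.88 and 2.04 from HS-26 in liver and brain. The log2 ratios became 3.97 for liver against brain and 3.32 for full against diluted template from the promoter, and -0.16 from HS-26. Positions past 2-fold under this scaling were 27 higher and 0 lower in both promoter comparisons, and 2 higher and 2 lower from HS-26. The signal as deposited, also chosen after seeing the data, gave -3.18 from HS-26 and 4 positions lower in liver from the promoter. The 1/16 template library in place of the full one gave a log2 ratio of -0.038 and 0 positions lower. The 2 kb window gave 1 position higher in each of the 3 comparisons, 17 lower for full against diluted template, 0.82 for the 1/16 template level, and 32120000 as the top position of both signal and O/E from HS-26 in liver. The shortened region had 7 positions lower for full against diluted template. No paired analysis was possible because each group is 1 library. Depth is unknown, so values at recurring low levels have no order.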
